A study of Sus scrofa with 22 samples.

Results

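A set of 10 genes that mark endothelial cells, the cells lining blood vessels, was followed through all 22 pig RNA sequencing libraries of the study: PECAM1, CDH5, CLDN5, EMCN, PLVAP, VWF, TEK, TIE1, KDR and EGFL7. They were chosen by name, and all 10 had a row among the 27376 genes counted in 16 libraries and among the 29850 genes counted in the other 6. The libraries fell into 6 groups. Native foliate papillae, ridges along the edge of the tongue in which taste buds sit, gave 5 libraries from 5 pigs. The cultures grown from those pigs' papillae gave 5 more at passage 1. They were grown in LPM, a medium with EGF, FGF10 at 100 ng/ml, FGF2, R-spondin 2, noggin, SHH, Wnt3a, insulin, prostaglandin E2, forskolin, nicotinamide, N-acetylcysteine and the small molecules Y-27632, A-83-01, SB202190 and CHIR99021, and VEGF is not among the listed additions. A further experiment set 3 organoid libraries in LPM beside 3 in LPM without FGF10, and another set 3 in LPM beside 3 kept in LPM to day 10 and then in CQ to day 16 or 17. What CQ contains, and the day on which its LPM partners were taken, are not given in the sources used here, so medium and culture age cannot be told apart. Genotype, strain and age of the pigs are not given either.

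Endothelial cells are held together by adhesion and tight junction proteins, carry a sugar-rich surface facing the blood, and store clotting factors for release. They grow and survive under 2 receptor systems: VEGF receptors, which answer to ligands made mostly by neighbouring cells, and the TIE receptors, which answer to angiopoietins. An organoid grown from epithelial stem cells in a gel has no blood supply, and the papilla it came from has a dense capillary bed. The libraries show which endothelial transcripts were still measured in culture, and in which medium.

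Library totals ranged, in units of 1e6 counts, from 17.04 to 20.71 in papillae, from 21.79 to 27.77 in passage 1 organoids, from 19.62 to 26.01 in the other LPM or FGF10-free cultures and from 14.67 to 16.0 in CQ. Levels are given as CPM, counts divided by the library total after TMM scaling within each comparison and put on a scale of 1e6, so that levels set side by side across experiments are not scaled together. The labels name the cells as stem cells or mature taste cells. A list of 10 epithelial genes summed to 8865 to 11633 CPM in papillae and 8433 to 12234 CPM in passage 1 organoids, with its members changing in both directions. In bulk RNA, fewer cells of a type and less RNA per cell cannot be told apart.

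In the papillae, all 10 genes were detected in every library. Their summed level ran from 590 to 804 CPM, a range of 1.36-fold between the lowest and the highest pig. Over the same 5 libraries the summed level of 9 skeletal muscle genes ran from 301 to 9179 CPM and that of 11 fibroblast genes from 2165 to 7497 CPM, so the pieces of tissue differed far more in muscle than in these endothelial transcripts. EMCN and PECAM1 were the steadiest, with the highest library 1.15 and 1.20 times the lowest. EGFL7 and VWF varied most, by 2.17 and 2.10 times.

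Per kilobase of exon, so that genes of unlike length can be ranked, PLVAP at 32.5 ± 5.4, PECAM1 at 30.1 ± 2.3, EGFL7 at 29.7 ± 9.1 and CLDN5 at 25.7 ± 2.7 CPM per kb (SD, n = 5) led the papillae. Their SDs overlapped, so their order was not resolved. VWF at 20.8 ± 6.8 and CDH5 at 10.7 ± 1.7 came next. EMCN at 6.80 ± 0.42 followed, and TIE1 at 4.65 ± 1.10, KDR at 4.26 ± 0.40 and TEK at 2.79 ± 0.61 CPM per kb were lowest. By this measure the 3 receptor genes sat below the structural genes in tissue. For TIE1 the rank depends on a gene model of 10990 exon bases, of which 6465 lie in a single exon. Counts per gene do not tell whether that exon was read, so the place of TIE1 was not settled.

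**Figure D1:**
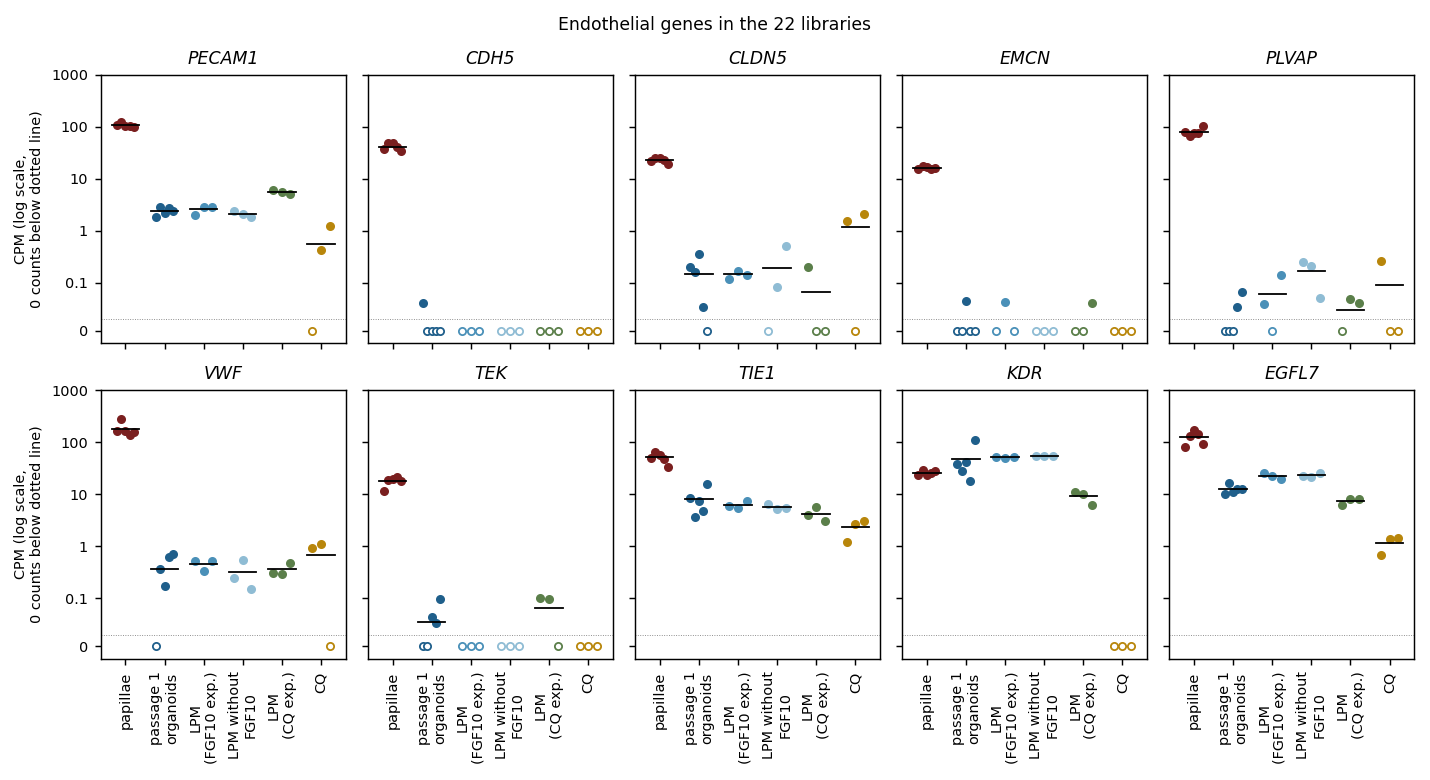
CPM of each of the 10 endothelial genes (log axis) in the 22 libraries by group, with filled points for libraries, open points on the bottom line for libraries with 0 counts and bars for group means above 0.02 CPM. CDH5 and EMCN go from 15.2 to 48.1 CPM in papillae to 0 or 1 count per library in every organoid group, whereas KDR stays between 17.6 and 111 CPM in passage 1 organoids and is at 0 in all 3 CQ libraries.

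Passage 1 organoids were compared with the papillae of the same 5 pigs to see how far the culture carries over the transcripts of the tissue. By edgeR's quasi-likelihood test, 9 of the 10 genes were lower in organoids and 1, KDR, was not called. Of all 16311 genes tested, 35.1% were called lower and 32.4% higher. Of the 10 genes, 6 (CDH5, PLVAP, VWF, TEK, EMCN and CLDN5) passed the filter on low counts through the papillae alone. For these the filter itself favoured a lower level in organoids. The adjusted p-values given for these 6 genes below carry the same limit and are descriptions. The count of 9, and the median fitted log2 fold change of -7.99 beside -0.01 over all genes tested, are therefore descriptions and no support for a shared change. The organoid libraries by themselves carried the other 4 past the filter, and of these PECAM1, TIE1 and EGFL7 were lower. Changes ranged from a near-complete loss of most junction and surface transcripts to a level of KDR that was not below that of the tissue.

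CDH5 encodes VE-cadherin, the adherens junction cadherin that is the most specific of these markers for endothelium. It stood at 36.7, 48.0, 48.1, 41.0 and 33.5 CPM in the papillae of pigs 1 to 5. In the organoids 1 count was found in the library of pig 1, which is 0.0407 CPM, and none in the other 4. The 3649 papilla counts against 1 organoid count gave a ratio of 5542, with an exact 95% interval of 994 to 218940 that covers counting error only (edgeR adjusted p = 5.42e-09). No count of CDH5 was found in any of the 12 libraries of the media experiments.

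EMCN, the sialomucin endomucin of capillary and venous surfaces, fell in the same way. Its papilla levels were 15.2, 17.5, 17.1, 15.4 and 16.3 CPM, and 1 count in the organoids of pig 3 was the only one in passage 1 organoids. The ratio of scaled counts was 2158 (interval 387 to 85295), with an edgeR adjusted p of 2.16e-08. Among the other organoids EMCN had 1 count in 1 LPM library of each media experiment and 0 counts in the remaining 10.

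PLVAP builds the diaphragms of fenestrated capillaries. It was at 78.6, 65.7, 74.9, 75.4 and 101 CPM in papillae, and had 1 count in the organoids of pig 4 and 2 in those of pig 5. This was a ratio of 3423 (1171 to 16600) and an edgeR adjusted p of 5.02e-09. The lowest papilla lay far above the highest organoid library for each of CDH5, EMCN and PLVAP.

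CLDN5, the main claudin of endothelial tight junctions, was measured in papillae at 22.2, 25.4, 24.8, 23.2 and 19.3 CPM. Organoids of pigs 1 to 4 held 5, 4, 8 and 1 counts and those of pig 5 none, at most 0.352 CPM. The fitted log2 fold change was -7.29 ± 0.54 (SE, edgeR adjusted p = 7.39e-07). The 18 organoid counts fall on a gene model of a single exon of 893 bases.

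PECAM1 encodes CD31, an adhesion protein of endothelial junctions that platelets and leukocytes also carry. It fell from 109, 120, 104, 101 and 99.9 CPM in papillae to 1.83, 2.91, 2.15, 2.69 and 2.40 CPM in organoids. The fall was 44.5-fold (log2 fold change -5.47 ± 0.15, edgeR adjusted p = 1.87e-09). Of these 4 genes it had the narrowest range over pigs, between 37.4 and 59.5-fold. Unlike CDH5, PECAM1 stayed above the filter in all 5 organoid libraries, with 45 to 79 counts each. The 12 leukocyte genes summed to 444 to 856 CPM in papillae and 51.6 to 121 CPM in the organoids. PTPRC (the pan-leukocyte marker CD45), CD163, CD3E, CD3D and MS4A1 had 0 counts there, whereas the macrophage-associated genes CD68 and AIF1 rose, from 17.3 to 48.8 CPM and from 7.41 to 24.6 CPM. These were the only 2 called higher of 10 tested leukocyte genes, and 6 were lower. Among the lower, CSF1R fell from 41.9 to 0.726 CPM, CD74 from 418 to 5.06 CPM and LYZ from 78.9 to 2.59 CPM. The 8 platelet genes summed to 30.2 to 37.6 CPM in papillae and 28.0 to 37.5 CPM in organoids, with GP1BB at 0 counts and GP9 rising from 12.96 to 20.1 CPM. Their part in the residual PECAM1 was not tested.

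VWF, the clotting factor stored in endothelial granules and also in platelets, measured 164, 284, 164, 135 and 158 CPM in papillae and 0, 0.369, 0.176, 0.613 and 0.722 CPM in organoids. The fitted log2 fold change was -8.83 ± 0.55 (edgeR adjusted p = 2.38e-07). Organoids of pigs 4 and 5 had 18 and 22 counts and those of pig 1 none, so the remainder was small and uneven.

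TEK and TIE1 are paired receptor tyrosine kinases. TEK binds angiopoietins, and TIE1 binds none directly and tunes the signal of TEK. TEK had papilla levels of 11.4, 18.4, 20.1, 21.8 and 18.1 CPM and, in organoids, 0, 0, 1, 1 and 3 counts in pigs 1 to 5. The ratio was 475 (203 to 1465), with an edgeR adjusted p of 1.05e-07.

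TIE1 behaved otherwise. Its papilla values of 49.6, 65.7, 58.1, 48.6 and 33.3 CPM fell to 8.34, 3.61, 7.38, 4.70 and 15.9 CPM, and the groups did not overlap. The fitted log2 fold change was -2.68 ± 0.37, a 6.39-fold fall (edgeR adjusted p = 6.71e-05). Within pigs the fall ran from 2.10-fold in pig 5, whose papilla was the lowest and whose organoids were the highest, to 18.2-fold in pig 2. The TIE1 gene model spans 10990 bases of exon, of which 6465 lie in a single exon at its 5′ end. Counts per gene do not tell which part of the model was read.

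EGFL7 encodes a secreted matrix protein of sprouting vessels. Papillae had 79.9, 130, 173, 141 and 92.3 CPM and organoids 10.2, 16.3, 11.03, 12.7 and 12.7 CPM. The fold of 9.81 (log2 fold change -3.29 ± 0.23, edgeR adjusted p = 5.18e-07) was larger than that of TIE1 and smaller than that of PECAM1 in fitted value, and the organoid libraries lay closer together than the papillae. MIR126, the endothelial microRNA gene that lies inside EGFL7, had 60 counts over the 5 papillae and 1 over the 5 organoids. A poly-T library does not measure the mature microRNA. AGPAT2, 617 bases away on the other strand, went from 138 ± 43.5 to 45.9 ± 5.19 CPM.

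KDR encodes VEGF receptor 2, the main signalling receptor for VEGFA on endothelium. Its papilla levels were close together at 23.6, 29.2, 23.6, 25.5 and 27.4 CPM. Organoid levels were 38.0, 28.6, 41.6, 17.6 and 111 CPM, so the groups overlapped, and the organoid value was the higher in 3 of 5 pigs, with organoid to papilla ratios of 0.691 in pig 4 to 4.04 in pig 5. The means of 25.9 ± 2.43 and 47.4 ± 36.7 CPM (SD, n = 5) differed by a fitted log2 fold change of 0.87 ± 0.40, which did not pass the test (edgeR adjusted p = 0.0728). The call turned on single libraries and on the scaling: KDR was called higher without the organoids of pig 2 (0.0487), without those of pig 4 (0.0144) and with library size in place of TMM (0.0217), over a range of 0.0144 to 0.262 for its 15 alternatives. Library size alone moved the median log2 fold change of all genes from -0.01 to 0.28, and that of KDR to 1.14.

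**Figure D2:**
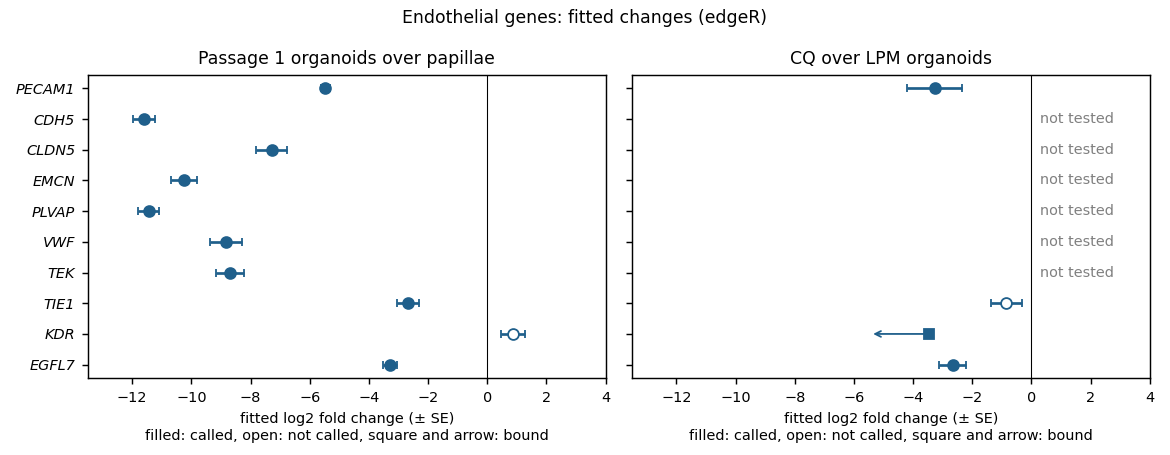
Fitted log2 fold change (± SE) of the 10 genes in passage 1 organoids over papillae and in CQ over LPM organoids, with filled points for called genes and the square with an arrow for KDR in CQ, drawn at its bound because the gene had 0 counts there. KDR is the only gene right of 0 in organoids over papillae, and 6 genes had too few counts to be tested in CQ over LPM.

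What remained in passage 1 organoids was made up differently from what the tissue held. As a share of the 10 genes' counts per kilobase, KDR made up 2.55 ± 0.26% in papillae and 57.4 ± 14.5% in organoids (SD, n = 5). EGFL7 took 17.5 ± 4.4 and 28.3 ± 12.0%, and TIE1 2.75 ± 0.49 and 5.74 ± 1.51%. PLVAP went from 19.6 ± 4.5 to 0.0614 ± 0.0885%, CLDN5 from 15.3 ± 0.99 to 1.62 ± 1.40% and PECAM1 from 17.97 ± 1.45 to 6.39 ± 2.95%. The lowest organoid share of KDR, 39.9%, lay above the highest papilla share, 2.87%.

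**Figure D3:**
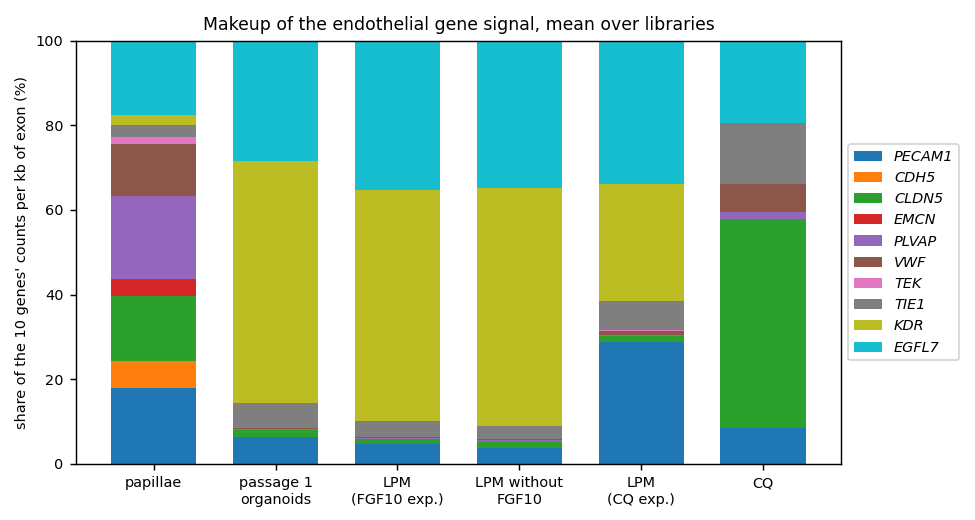
Stacked mean shares (%) of the 10 genes in their summed counts per kilobase of exon, by group, each bar adding to 100%. Papillae are spread over PLVAP, PECAM1, EGFL7, CLDN5 and VWF, and passage 1 and both FGF10-experiment groups are mostly KDR and EGFL7. LPM libraries of the CQ experiment are spread over EGFL7, PECAM1 and KDR. The CQ bar, which rests on 4.63 to 7.88 CPM in all, has no KDR.

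In the order of levels in passage 1 organoids, KDR led at 7.80 ± 6.05 CPM per kb, EGFL7 came second at 3.03 ± 0.56, and the SD of KDR spanned that of EGFL7. TIE1 at 0.726 ± 0.437 and PECAM1 at 0.675 ± 0.120 CPM per kb were next and did not differ beyond their spread. CLDN5 was at 0.169 ± 0.158 and VWF at 0.0433 ± 0.0344, and PLVAP, TEK, EMCN and CDH5 were each below 0.01 CPM per kb.

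Other genes of the same cells were read from lists, to be set against the 35.1% of all tested genes called lower and the 32.4% called higher. For a list gene that passed the filter through the papillae alone, the filter favoured a lower level in organoids, so list counts are descriptions. Such a gene could still go uncalled, as ANGPT2 did. Each count is followed by that among genes that the organoid libraries carried past the filter by themselves. Of 23 further endothelial surface and junction genes, all 23 were called lower, among them all 7 that were past the filter in organoids. SHANK3 went from 118 to 0.995 CPM, and MMRN2, a matrix protein that binds CD93 on endothelium, from 60.4 to 3.13 CPM. ROBO4, CLEC14A, MMRN1 and ECSCR had 0 counts in passage 1 organoids. ENG, the TGF-beta co-receptor endoglin, kept 14.8 CPM of 78.1 CPM.

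All 8 tested genes of a capillary list of 9 were called lower, among them RGCC and CAV1, the 2 past the filter in organoids. AQP1, a water channel of capillary endothelium, had 14720 counts in papillae and none in organoids. For a group at 0 the floor is 3 counts multiplied by the group's ratio of variance to mean (a median over genes averaging 10 to 30 counts, 5.78 here), which is 17.3 counts over the group, and against it AQP1 was at least 1290.0-fold lower. CAV1, which coats caveolae, was at 82.6 and 2.52 CPM. For leukocyte adhesion molecules of activated endothelium, 5 of 7 were lower, and 1 of the 2 past the filter in organoids. ACKR1 went from 1905 counts to 0 and VCAM1 from 1962 counts to 16.

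Among 18 transcription factors of endothelial cells, 12 were lower, 3 higher and 3 not called. Of the 9 past the filter in organoids, 3 were lower and 3 higher. SOX18, which drives vessel and lymphatic identity, went from 6421 counts to 6, with a ratio of 1625 and an interval of 746 to 4430. TAL1, shared with blood progenitors, had 2277 counts and 1. KLF2, induced in endothelium by flow, fell from 131 to 4.02 CPM (log2 fold change -5.03 ± 0.29, edgeR adjusted p = 1.23e-07). LMO2 rose from 36.3 to 77.3 CPM and ELK3 from 19.2 to 39.5 CPM.

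Of 7 genes in a list of angiopoietins, angiopoietin-like genes and other genes around the TIE receptors, 5 were lower and 1 was higher. Past the filter in organoids were 2, ANGPTL2, which was lower, and ANGPTL4, both angiopoietin-like genes and not angiopoietins. The angiopoietin ANGPT2 was at 2.04 and 1.61 CPM and was not called (edgeR adjusted p = 0.593). ANGPTL4 was the higher one, at 16.3 and 33.8 CPM, with an edgeR adjusted p of 0.0298 that became 0.108 with the pig as a block and 0.0922 by limma-voom. Its call was also lost without the papilla of pig 1, 2 or 5 or the organoids of pig 4 or 5 (0.0507 to 0.0848) and held in 8 of 15 alternatives. PTPRB, the phosphatase that dampens TEK, had 2285 counts in papillae and 15 in organoids. SVEP1, a matrix ligand of TIE1, had 876 and 8. ANGPT4 had 0 counts in organoids.

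KDR can be set beside its own ligands and co-receptors. All 9 genes of a VEGF list were tested, of which 6 were lower and 3 higher in passage 1 organoids. Of the 6 past the filter in organoids, 3 were lower and 3 higher. The placental growth factor PGF rose from 12.3, 12.5, 12.6, 7.11 and 10.98 CPM to 312, 148, 229, 87.4 and 331 CPM (log2 fold change 4.32 ± 0.37, edgeR adjusted p = 2.11e-06). VEGFA rose from 159 to 369 CPM (1.21 ± 0.26, adjusted p = 0.00159), and NRP2, a co-receptor, from 23.9 to 95.9 CPM (2.01 ± 0.13, adjusted p = 3.10e-07). The groups did not overlap for any of these 3 genes.

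The other receptors went the opposite way. FLT1, VEGF receptor 1, fell from 37.5 to 3.29 CPM (-3.52 ± 0.35), and FLT4, VEGF receptor 3, from 933 counts to 13. NRP1, the other neuropilin, fell from 26.8 to 8.02 CPM and the ligand VEGFB from 65.1 to 25.7 CPM. Per kilobase, the level of FLT1 exceeded that of KDR in all 5 papillae, and that of KDR exceeded that of FLT1 in all 5 organoid libraries. Pig 5 had the highest organoid values of KDR, TIE1, VEGFA and PGF, and pig 4 the lowest of KDR, VEGFA and PGF.

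**Figure D4:**
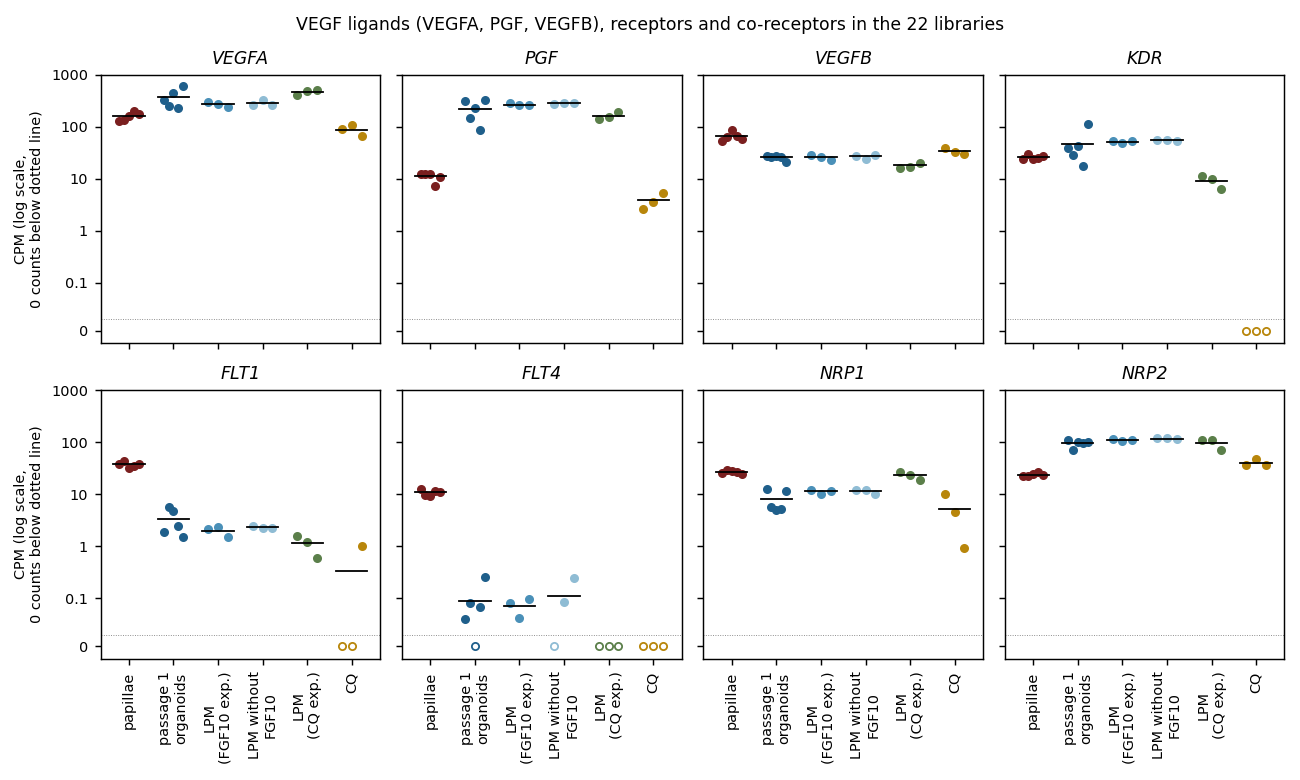
CPM (log axis) of the VEGF ligands VEGFA, PGF and VEGFB, the receptors KDR, FLT1 and FLT4 and the co-receptors NRP1 and NRP2 in the 22 libraries, with open points for 0 counts and bars for group means. PGF and NRP2 are higher in every passage 1 organoid library than in any papilla, FLT1 and FLT4 lower, and PGF falls with KDR in CQ.

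In a list of 12 arterial and Notch genes, 6 were lower and 4 higher, and of the 8 past the filter in organoids 3 were lower and 4 higher. SEMA3G and GJA4, made by arterial endothelium, had 3186 and 542 counts in papillae and 4 and 1 in organoids. EFNB2 and its receptor EPHB4, an arterial and venous pair that epithelium also expresses, rose from 6.57 to 53.5 CPM and from 42.8 to 168 CPM. JAG1 rose from 94.0 to 211 CPM and the Notch target HEY1 from 23.5 to 58.7 CPM. The 3 lower genes past the filter went the other way: NOTCH4 fell from 41.3 to 3.72 CPM, DLL4 from 7.73 to 3.35 CPM and HEY2 from 8.43 to 1.34 CPM. Of 6 tested lymphatic genes, 4 were lower and 2 higher, and of the 4 past the filter in organoids 2 and 2. CCL21 had 1048 counts and then 2, LYVE1 131 and then 1, whereas PDPN rose from 6.10 to 68.7 CPM and PROX1 from 2.91 to 8.65 CPM.

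Markers of the cells around vessels moved in the same libraries, most of them past the filter through the papillae alone. Of 14 pericyte and smooth muscle genes 13 were lower and 1 higher, of 11 fibroblast genes 10 were lower, of 9 skeletal muscle genes 9, of 7 nerve genes 7 and of 10 tested leukocyte genes 6, with 2 higher. Of 6 tested platelet genes 2 were lower and 1 higher, and both tested erythrocyte genes were lower. Past the filter in organoids were 4 pericyte and smooth muscle genes (3 lower, 1 higher) and 3 fibroblast genes (2 lower). The 1 nerve gene past it was lower. Of 6 leukocyte genes past it 2 were lower and 2 higher, and of 4 platelet genes 0 were lower and 1 higher. No skeletal muscle or erythrocyte gene was past it. MYH11 went from 508 to 0.509 CPM and DCN from 326 to 0.0535 CPM. The 1 higher gene of the pericyte and smooth muscle list, NDUFA4L2, rose from 49.3 to 364 CPM. NOTCH3, of the same list, kept 83.0 of 150 CPM, and the fibroblast gene THY1 was not called, at 112 and 132 CPM. Of 10 epithelial genes, 2 were lower and 7 higher, all past the filter in organoids. The basal-cell genes KRT5 and TP63 fell, from 8170 to 1692 CPM and from 103 to 56.5 CPM, whereas KRT19 rose from 230.0 to 2475 CPM and KRT8 from 340 to 2156 CPM. Papillae and organoids were extracted with different RNA kits per the labels' protocols, so kit and contrast cannot be told apart.

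**Figure D5:**
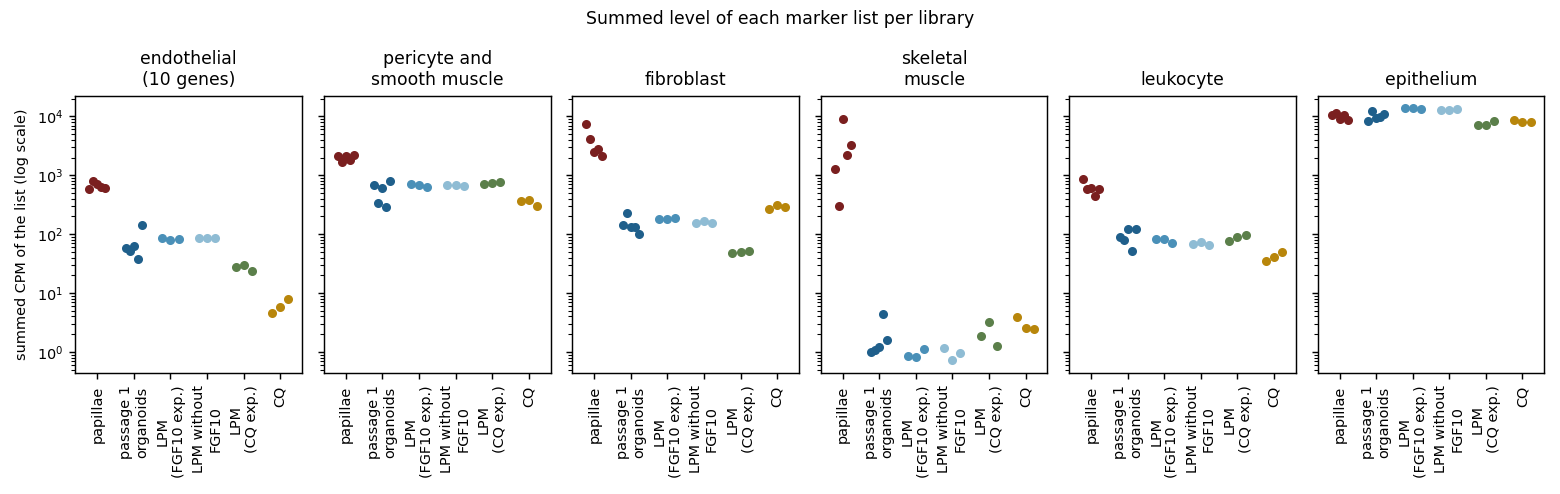
Summed CPM of 6 marker lists (log axis) per library and group, each point a library. The 10 endothelial genes sum to 590 to 804 CPM in papillae and 38.5 to 143 CPM in passage 1 organoids, and epithelial genes stay between 7059 and 13803 CPM in all groups.

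The 5 genes with the profile nearest to the mean profile of the 10 over the papilla and passage 1 organoid libraries were CAPNS2, WSCD1, TGFB1I1, HCLS1 and TMEM204, among 10567 genes compared. Likeness was the root mean square difference of log2(CPM + 0.1), each profile centred on its papilla mean, and it ran from 0.204 for CAPNS2 to 0.316 for TMEM204. CAPNS2 went from 86.5 ± 3.29 to 1.30 ± 0.26 CPM and TMEM204 from 33.1 ± 10.1 to 0.500 ± 0.192 CPM. The mean profile averages KDR, which was not lower in organoids, with genes near 0 counts there, so single members can lie far from it. Any gene with a fall of like size between the 2 groups comes out near, so nearness does not tell the cell type.

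Removal of FGF10 from LPM asked whether this growth factor matters for the culture. Only PECAM1, VWF, KDR, TIE1 and EGFL7 had enough counts to be tested, and none was called (0 of 5 by edgeR, 0 at an unadjusted p under 0.05, and 0 by DESeq2 and limma-voom). Over all 14262 genes, 1.2% were called lower and 0.582% higher. KDR was at 53.1, 49.0 and 52.7 CPM in LPM and 54.9, 55.4 and 53.4 CPM without FGF10. The groups did not overlap, yet the fitted log2 fold change of 0.08 ± 0.05 did not pass the test (edgeR adjusted p = 0.55).

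EGFL7 was at 25.9, 22.6 and 19.7 CPM with FGF10 and 22.03, 21.9 and 25.8 CPM without. TIE1 measured 5.86, 5.42 and 7.43 CPM with it and 6.48, 5.20 and 5.43 CPM without. The values of PECAM1 were 2.05, 2.92 and 2.83 against 2.39, 2.13 and 1.81 CPM, with overlap in each case. VWF was between 0.151 and 0.554 CPM in all 6 libraries. PLVAP had 4 and 11 counts over the groups and CLDN5 10 and 12. CDH5 and TEK had 0 counts in all 6 libraries, which by the same floor rule allows up to 0.0532 CPM with FGF10 and 0.0600 CPM without.

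None of the 7 tested genes of the VEGF list was called. The share of KDR in the 10 genes' counts per kilobase was 54.8 ± 2.1% with FGF10 and 56.2 ± 2.8% without (SD, n = 3), beside 57.4% in passage 1 organoids, a separate experiment. KDR varied less over these 6 libraries, between 49.0 and 55.4 CPM, than over the 5 pigs of passage 1. The pigs behind these 6 libraries are not given, so the 2 spreads may not be of the same kind.

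Finishing the culture in CQ was compared with LPM alone. Of 4 endothelial genes with enough counts, 3 were called lower (KDR, EGFL7 and PECAM1) and TIE1 was not called. Over all 13827 genes, 24.8% were called lower and 23.1% higher. Counts of the CQ libraries were uneven: where genes averaged between 10 and 30 counts, the median ratio of variance to mean was 12.7, against 1.23 to 5.78 in the other 5 groups. The floor of a CQ group at 0 counts was therefore 38.0 counts over the group, which is 0.806 CPM. KDR and PECAM1 passed the filter through the LPM libraries alone, so they had to be lower if called, and the count of 3 is a description. TIE1 and EGFL7 were past it in both groups, and EGFL7 was called.

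KDR was at 11.13, 9.99 and 6.36 CPM in LPM and had 0 counts in all 3 CQ libraries. The 579 counts against 0 make it at least 11.101-fold lower (edgeR adjusted p = 9.39e-05, for a gene that the LPM libraries alone carried past the filter). This level in LPM, 9.16 ± 2.49 CPM, was itself below the 51.6 ± 2.24 CPM of LPM cultures in the FGF10 experiment, with no overlap. The 2 experiments were counted and scaled apart, so that difference was not tested.

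EGFL7 fell from 6.23, 8.04 and 8.31 CPM to 0.671, 1.40 and 1.45 CPM, a 6.35-fold change without overlap (log2 fold change -2.67 ± 0.44, edgeR adjusted p = 0.00114). PECAM1 went from 5.97, 5.44 and 5.15 CPM to 0, 0.427 and 1.26 CPM (-3.27 ± 0.93, adjusted p = 0.0173). The PECAM1 call was lost when any 1 of the LPM libraries was left out (0.0643, 0.0637 and 0.0556), and its range over 11 alternatives was 0.000437 to 0.0643.

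TIE1 measured 3.98, 5.63 and 3.08 CPM in LPM and 1.21, 2.74 and 3.09 CPM in CQ. The groups overlapped, and the fitted log2 fold change of -0.84 ± 0.52 was not called (edgeR adjusted p = 0.212). TIE1 kept 112 counts over the CQ group, against 269 in LPM.

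CLDN5 had 4, 0 and 0 counts in LPM and 23, 0 and 33 in CQ, which were too few to be tested with all libraries. It was called higher only without the second CQ library (edgeR adjusted p = 0.0139, over 0.0139 to 0.272 where it could be fitted). VWF had 24 and 32 counts over the groups and PLVAP 2 and 4. TEK and EMCN had 4 and 1 counts in LPM and none in CQ, and CDH5 none in either. For genes at 0 in CQ the floor of 38.0 counts allows a level up to 0.806 CPM, so differences under it were not detectable. The uneven counts set this limit rather than depth, since 3 counts over the group would be 0.0636 CPM.

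The VEGF system around KDR also differed in CQ: 4 of 7 tested genes were lower and 1 higher. PGF fell from 139, 150.0 and 190.0 CPM to 2.62, 3.597 and 5.42 CPM (log2 fold change -5.36 ± 0.26, edgeR adjusted p = 9.40e-07). VEGFA fell from 465 to 86.6 CPM (-2.42 ± 0.18, adjusted p = 8.97e-06). NRP2 went from 96.7 to 40.7 CPM and NRP1 from 23.2 to 5.15 CPM, and VEGFB rose from 17.9 to 34.1 CPM. FLT1 was at 1.14 and 0.336 CPM and was not called (adjusted p = 0.338), but was called lower without the third CQ library (0.00751, over a range of 0.00751 to 0.596).

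Among the other lists, the flow-responsive factor KLF2 rose in CQ from 3.48 to 102 CPM (log2 fold change 4.88 ± 0.21, edgeR adjusted p = 5.73e-07). ENG fell from 17.2 to 3.90 CPM, JAG1 from 453 to 74.8 CPM and HEY1 from 134 to 3.88 CPM. Their lists went both ways, beside 24.8% lower and 23.1% higher over all genes tested. Of 11 tested endothelial transcription factors 2 were lower and 2 higher. Of 6 tested surface and junction genes 3 were lower and 1 higher, and of 9 tested arterial and Notch genes 3 were lower and 2 higher. Leukocyte genes summed to 75.2 to 98.3 CPM in LPM and 34.4 to 49.9 CPM in CQ, with CD163, CD3E and MS4A1 at 0 in both. Of 7 tested, 3 were lower and 2 higher. CD68 fell from 55.6 to 22.5 CPM and AIF1 from 23.3 to 8.78 CPM. CSF1R rose from 5 to 62 counts and CD79A from 1.77 to 5.07 CPM, with edgeR adjusted p of 0.0264 and 0.0257. Both calls were lost in 4 of 11 alternatives, among them the replicate block (adjusted p 0.0593 and 0.0673) and leaving out LPM library 1 (0.142 and 0.118) or 2 (0.149 and 0.0910). PTPRC had 2 and 13 counts. Their part in the PECAM1 change was not tested. The 8 platelet genes summed to 29.7 to 33.3 CPM in LPM and 29.6 to 41.4 CPM in CQ.

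Positions are those of the deposited annotation on Sscrofa11.1, and each count runs over all exons of a gene, untranslated parts included. PECAM1 lies on the plus strand of chromosome 12 from 14667643 to 14723296 (16 exons after merging), CDH5 on the plus strand of chromosome 6 from 27108560 to 27142145 (13 exons) and PLVAP on the plus strand of chromosome 2 from 60324565 to 60344450 (7 exons). VWF is on the plus strand of chromosome 5 from 64516627 to 64655938 (53 exons) and EMCN on the plus strand of chromosome 8 from 120174091 to 120227971 (11 exons). On the minus strand are KDR on chromosome 8 from 41809116 to 41856379 (30 exons), TEK on chromosome 1 from 195938177 to 196052294 (24 exons), TIE1 on chromosome 6 from 167919662 to 167947253 (25 exons) and CLDN5 on chromosome 14 from 51161490 to 51162382 (1 exon). EGFL7 is on an unplaced scaffold, minus strand, from 1107088 to 1119033 (13 exons).

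Strand was ignored in counting, so overlapping neighbours matter for the low values. LOC102166359, on the other strand, shares 384 exon bases with TEK and had 72 counts in papillae and 1 in organoids. LOC110255989 lies within the span of PECAM1 on the other strand, sharing no exon base, and went from 347 counts to 9. LOC106510374 ends 720 bases from KDR on the same strand and had 14 counts in papillae and 3 in organoids, far under the 2244 and 6476 counts of KDR.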

How the data were processed

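Poly-T selected RNA was sequenced from 22 libraries. The deposited files hold raw whole-number counts of read pairs for each gene, as the authors' featureCounts runs wrote them. The headers show that versions 2.0.3 (16 libraries) and 2.0.6 (6 libraries of the CQ experiment) ignored strand, counted a read pair for each gene it overlapped and left out pairs mapping to several places. The submitters' processing notes name STAR 2.7.10b. From the 6 later tables, 1 row that names no gene (0.326 to 0.477% of counts) was dropped.

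Fits held the 2 groups compared and no others, over all genes, with edgeR 4.0.16 in R 4.3.3. They used TMM, filterByExpr and the quasi-likelihood test, with p adjusted after Benjamini and Hochberg and a call at an adjusted p under 0.05. The fit and its alternatives were tested on simulated data. Papilla and passage 1 libraries came from the same pigs, per the labels' titles, and the correlations of their deviations within a pig were 0.0355 to 0.110. Titles of the FGF10 experiment say "biol rep", without saying whether that means separate cultures or pigs, and those of CQ do not say so. The pigs behind both media experiments are not given. P-values there may therefore measure technical spread. Alternatives were the pig or replicate number as a block, DESeq2 1.42.0, limma-voom (limma 3.58.1), library size alone, no filter and leaving out each library.

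The 10 genes, 16 gene lists (174 other genes) and the rule for named genes were chosen with earlier results of these data known. Named from each list were up to 2 called genes per direction by smallest p, genes above 1 CPM in passage 1 organoids, neighbours within 1000 bases of a member and the 5 nearest profiles. List genes at 0 counts and the genes named last for CQ (KLF2, ENG, JAG1, HEY1 and the leukocyte genes) were chosen after their values were seen. So was CSF1R in organoids against papillae. Where counts were 0, the floor was 3 counts over the group multiplied by the group's ratio of variance to mean, a rule chosen after the data were seen. Ratios with 95% intervals are of counts summed over groups and divided by their scaled totals. The reads carry no molecular identifiers and may be copies of 1 molecule, so the intervals cover counting error only. Floors are widened by the group's median ratio of variance to mean and cover no other spread.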

Additional observations from a re-analysis of the deposited data

Results flagged for a closer look

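Among the 10 genes, each tested in the papilla and passage 1 organoid groups of 5 libraries (20 groups), 4 groups had 1 library far from the others, where chance gives about 1 in 20. VWF reached 283.9 CPM in the papilla of pig 2, against 135 to 164 CPM in the other 4. KDR reached 110.9 CPM in the organoids of pig 5, against 17.6 to 41.6 CPM. The level of CDH5 was 0.04067 CPM in the organoids of pig 1 and 0 in the other 4, and that of EMCN 0.04396 CPM in the organoids of pig 3 and 0 in the other 4. Each of the last 2 is a single count among libraries at 0, for which that chance rate does not hold, so the 4 groups cannot be set against it.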

How the results depend on the processing

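In organoids against papillae, 9 of the 10 genes were called lower under all 15 alternatives, and these were the same 9. With the pig as a replicate block the count was 9, and no call of the 10 changed. Over leave-one-out fits it stayed 9, and 10 were called in either direction where KDR was called higher. The 2 erythrocyte genes called lower became 1 with library size alone or without pig 4's or pig 5's papilla or pig 2's organoids, and 4 without the filter. Library size alone moved the share of lower calls among all calls from 52.0 to 40.4%. In the FGF10 experiment 0 members were called with or without the replicate block, and the same-numbered libraries deviated with correlations of -0.0457 to 0.0475. The fitted log2 fold change of TIE1 there ranged from -0.22 to 0.01 over the alternatives and that of EGFL7 from -0.07 to 0.13, turning sign without LPM library 3 (TIE1 0.012, EGFL7 -0.066) or FGF10-free library 3 (EGFL7 -0.056), with adjusted p of 0.738 to 0.983 and 0.655 to 0.999. The cause was not tested. All genes called in that experiment numbered 254, but 429 without the filter, 125 without LPM library 2 and 128 without FGF10-free library 1. In CQ against LPM 3 members were called in every setting that kept all libraries, replicate block included, and 2 to 4 when 1 was left out. Same-numbered libraries there correlated at -0.00754 to 0.0213. The KDR share of 57.4% in passage 1 organoids was 62.0% in counts rather than per kilobase. Per kilobase it ran from 39.9 to 77.5% over the 5 libraries. Depth limits CDH5, EMCN, TEK and PLVAP in organoids, where a few counts set each level.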
